A study of Mus musculus with 2116 samples.

Results

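The helper lineage transcription factors described here are 9 genes that T cell biologists use to name helper programmes: Gata3, Tbx21, Rora, Maf, Bcl6, Prdm1, Runx1, Runx3 and Id2. They were taken by symbol from a single-cell count table of 23725 genes, in which all 9 members had a row. The table holds 816 cells of a regulatory T cell library (Treg) and 1300 cells of a conventional CD4 T cell library (Tconv), 2116 cells in all. Both libraries came from the spleen of 8-month-old male B6 Foxp3-Ires-Gfp mice, a strain whose Foxp3 locus also drives a green fluorescent protein. Cells were sorted as live, TCR beta positive and CD4 positive. The sort description names GFP-positive cells for both populations, so the Tconv gate is read from the sample names and from the study title. Every GEO sample is 1 cell, and each group is 1 library, for which the number of mice is not given in the sources used here. Differences between the libraries therefore have no replicate check, no p-value is given, and a difference between sorted populations cannot be told apart from a difference between the 2 libraries.

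CD4 T cells that leave the naive state take up programmes led by a few transcription factors. T-bet, encoded by Tbx21, directs the interferon-gamma producing Th1 programme, and GATA3, encoded by Gata3, directs the Th2 programme and supports T cell development. Bcl6 and Maf act in follicular helper cells, and ROR-alpha, encoded by Rora, shares targets with the Th17 factor ROR-gamma-t. Blimp-1, encoded by Prdm1, is a transcriptional repressor that acts in terminal effector cells and opposes Bcl6. Runx1 and Runx3 bind the same DNA letters with the shared partner Cbfb, and Id2 blocks DNA binding by E proteins such as Tcf3 and Tcf12. Several of these factors, among them Gata3, Maf, Prdm1 and Id2, are also known from regulatory T cells in tissues and from their activated forms.

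The count is of unique molecular identifiers (UMIs), tags that mark each captured transcript end once, and CPM is UMIs of a gene per 1000000 UMIs of the library. The Treg library held 1468203 UMIs with a median of 1688.5 per cell, and the Tconv library 2002752 with a median of 1510.5. Foxp3 checked the labels: it stood at 380.1 CPM in Treg, with a UMI in 36.4% of cells, and had 6 UMIs in 6 Tconv cells. T lineage genes such as Cd3e and Lck were present in both, at 10 UMIs in the median cell of each library over the 15 genes of the list in the table. Cells with at least 3 UMIs of a B, plasma, myeloid, plasmacytoid dendritic, erythroid, platelet or CD8 T cell list made up 10.5% of the Treg library (86 cells) and 3.77% of the Tconv library (49 cells). Of these lists the plasmacytoid dendritic one marked the most cells, 43 in Treg and 29 in Tconv. It shares Irf8 with a list of T cell receptor response genes, and Runx2 and Tcf4 with the relatives of the members. Whether the marked cells were of other types was not tested, so leaving them out may also drop T cells. The 2 libraries shared 12 cell barcodes.

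Gata3 and Runx3 lie on chr2:9857078-9890034 and chr4:135120652-135177990 of GRCm38, the build the submitters' notes call mm10. Maf lies on chr8:115682942-115707794, Id2 on chr12:25093799-25097140 and Runx1 on chr16:92601466-92826149. Bcl6 lies on chr16:23965052-23988852, Prdm1 on chr10:44437177-44528501, Tbx21 on chr11:97098071-97115331 and Rora on chr9:68653786-69388246. RefSeq promoter windows (GRCm38.p6) of 200 bases, running from 250 to 51 bases before a transcript start, were found for 8 of the 9 members, with 11 starts in all. They were searched on both strands for 4 motifs. These were AGATAA, which GATA factors read, TGTGGT, which RUNX factors read, CANNTG, the E-box that E proteins read, and TTCNNNGAA, which STAT factors read. Overlapping matches were counted separately. Of 32851 such windows in the table, 8.42%, 11.6%, 59.05% and 5.76% held each motif. Among the 11 member windows, none held AGATAA and 1 held TGTGGT: the upstream start of Runx3, with 2 matches. TTCNNNGAA was found at both starts of Bcl6, 1 match at the first and 3 at the other. Those windows of Runx3 and Bcl6 are shown because they carry letters read by the members' own families or by cytokine signalling, with the matches of all 4 motifs in capitals. The first is chr4:135120395-135120594 on the plus strand, and the other 2 are chr16:23988903-23989102 and chr16:23981334-23981533 on the minus strand.
Runx3 upstream start: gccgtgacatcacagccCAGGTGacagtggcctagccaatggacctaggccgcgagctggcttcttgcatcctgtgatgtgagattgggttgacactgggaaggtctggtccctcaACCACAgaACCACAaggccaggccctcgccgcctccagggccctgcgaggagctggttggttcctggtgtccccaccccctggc
Bcl6 first start: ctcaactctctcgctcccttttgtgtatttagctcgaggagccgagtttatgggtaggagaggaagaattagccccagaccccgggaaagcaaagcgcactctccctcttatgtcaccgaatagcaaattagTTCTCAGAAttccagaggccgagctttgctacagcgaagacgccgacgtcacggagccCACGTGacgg
Bcl6 other start: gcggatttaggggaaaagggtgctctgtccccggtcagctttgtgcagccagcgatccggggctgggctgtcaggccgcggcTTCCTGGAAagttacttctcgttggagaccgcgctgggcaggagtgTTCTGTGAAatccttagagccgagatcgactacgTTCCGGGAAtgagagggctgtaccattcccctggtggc
A match is a description of letters, and counts from transcript ends do not show which start a cell used.

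Gata3, Maf and Bcl6 passed a 2-fold difference towards Treg and Id2 passed it towards Tconv, while Prdm1, Runx1 and Runx3 differed by less. These 7 members had at least 20 UMIs in the 2 libraries together. Of all 8988 genes with that many, 8.61% passed 2-fold towards Treg and 3.6% towards Tconv, and the median log2 ratio was 0.14. TMM factors of the 2 libraries shift every log2 ratio by -0.16, and DESeq2 size factors by -0.19. With TMM, Maf stands at 1.19, Gata3 at 0.95 and Bcl6 at 0.90, so that of the 3 only Maf is past 2-fold.

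Gata3 was the member with most UMIs in Treg. It had a UMI in 150 Treg cells, 18.4% of the library, and in 11.7% of Tconv cells. Its level was 228.2 CPM (95% Poisson interval 204.4 to 253.96) in Treg against 106.4 (92.5 to 121.6) in Tconv. The log2 ratio of Treg over Tconv was 1.10 (exact interval 0.85 to 1.36). After each cell was thinned to 1000 UMIs, the share that carried Gata3 was 13.1% (10.8 to 15.8) in Treg and 9.12% (7.49 to 10.97) in Tconv. These shares lay closer together than the levels, and their intervals just overlapped. The rest of the gap was in UMIs per carrying cell, 2.23 in Treg and 1.40 in Tconv. As many as 39 Treg cells held 3 or more Gata3 UMIs, against 10 Tconv cells. At 1000 UMIs, at least 2 were held by 4.61% (3.21 to 6.38) in Treg and by 2.08% (1.32 to 3.10) in Tconv. In neither library did a few cells decide the level: the 5 highest cells held 12.8% and 12.2% of the Gata3 UMIs.

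Maf, a basic leucine zipper factor, followed the same direction. It had UMIs in 51 Treg cells and 36 Tconv cells, at 72.2 CPM (59.1 to 87.3) against 28.5 (21.6 to 36.9), a log2 ratio of 1.34 (0.87 to 1.83). At 1000 UMIs per cell the share of carriers was 4.88% (3.44 to 6.69) in Treg and 1.44% (0.83 to 2.33) in Tconv, and these intervals did not overlap. Bcl6 and Prdm1 were scarce. Bcl6 gave 32 UMIs in 18 Treg cells and 21 in 17 Tconv cells, a log2 ratio of 1.06 (0.22 to 1.92), and its thinned shares of 1.36% and 0.99% overlapped. Prdm1 gave 19 UMIs in 15 Treg cells and 16 in 13 Tconv cells, a log2 ratio of 0.70 (-0.34 to 1.75). The Prdm1 ratio turned to -0.41 when cells were thinned, so no direction can be read for it.

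Tbx21 and Rora were close to absent. Tbx21 gave 9 UMIs in 6 Treg cells and 5 UMIs in 5 Tconv cells, a log2 ratio of 1.296 with an interval from -0.44 to 3.22. Rora gave 3 UMIs in 2 Treg cells. None of 1300 Tconv cells had a Rora UMI, which allows a share of up to 0.231% of cells with a UMI, and no ratio is given for it. The cytokines that these programmes are named for were as scarce: Ifng had 1 UMI, Il4 had 3, Il21 and Il10 had 2 each, and Il5, Il13 and Il17a had none in the 2 libraries together.

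Id2, the inhibitor of E proteins, ran the other way. It had UMIs in 47 Treg cells, 5.76% of the library, and in 10.5% of Tconv cells, at 49.04 CPM (38.4 to 61.8) against 130.3 (114.99 to 147.1). The log2 ratio was -1.41 (-1.81 to -1.03), a 2.66-fold higher level in Tconv (2.04 to 3.50). The thinned shares, 4.201% (2.87 to 5.91) and 7.76% (6.25 to 9.50), did not overlap either, and 22 Tconv cells held 3 or more Id2 UMIs against 4 Treg cells. Runx3 had UMIs in 47 Treg cells and in 8.69% of Tconv cells, at 40.2 CPM (30.6 to 51.8) against 65.4 (54.7 to 77.6), a log2 ratio of -0.70 (-1.17 to -0.25). Its thinned shares of 3.79% (2.54 to 5.44) and 5.69% (4.397 to 7.22) overlapped. Runx1 was level, in 72 Treg cells and 9.62% of Tconv cells, at 74.9 CPM (61.6 to 90.3) against 81.4 (69.4 to 94.9), a log2 ratio of -0.12 (-0.48 to 0.24). The intervals of the 2 Runx ratios overlapped, and the difference between them was not tested. At 2000 UMIs per cell the log2 ratio of the shares was -0.83 for Runx1 and -1.08 for Runx3, each with overlapping intervals of the shares.

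**Figure D1:**
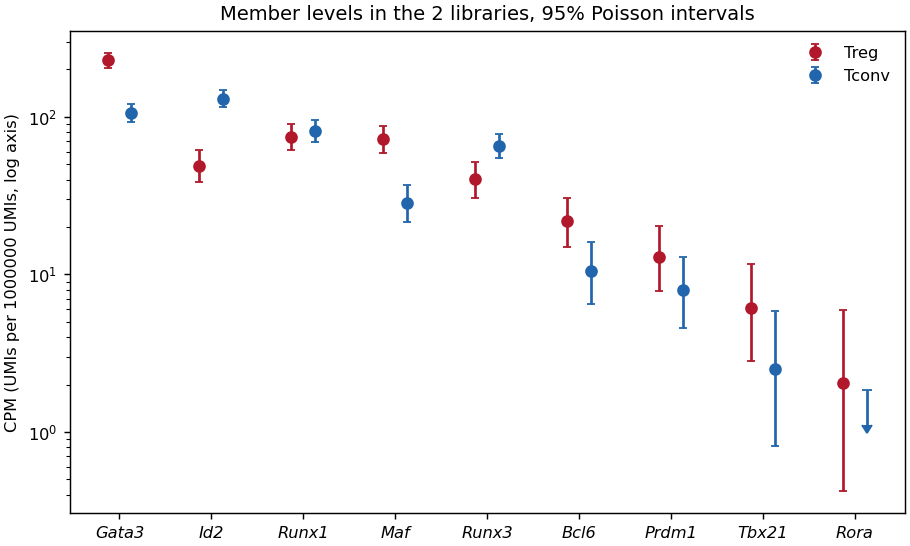
Summed level of each member in CPM (log axis) in the Treg library (816 cells) and the Tconv library (1300 cells), with exact 95% Poisson intervals that cover counting error only. Gata3 and Maf sit higher in Treg and Id2 and Runx3 higher in Tconv. The arrow marks Rora in Tconv, at 0 UMIs, from the upper Poisson bound.

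On the CPM scale, with 1 tag per transcript end and no length correction, the order in Treg was Gata3, Runx1, Maf, Id2, Runx3, Bcl6, Prdm1, Tbx21 and Rora. Gata3 stood clear of Runx1, and from there on each gene's Poisson interval overlapped that of its neighbour. In Tconv the order was Id2, Gata3, Runx1, Runx3, Maf, Bcl6, Prdm1, Tbx21 and Rora. There the first 4 overlapped in neighbouring pairs, Maf lay below Runx3 without overlap, and Bcl6 lay below Maf without overlap. How well a transcript is captured can differ between genes.

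The members' UMIs were not spread at random over cells. The variance over the mean of the UMI count per cell, which is 1 for independent tags, was 3.62 for Gata3 in Treg and 1.81 in Tconv, 3.04 and 2.33 for Maf, and 2.11 and 3.36 for Id2. Runx3 had the lowest values among the 5 commoner members, 1.51 and 1.19. Poisson intervals are therefore too narrow, most of all for Gata3, Maf and Id2, while shares of cells do not carry this limit.

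**Figure D2:**
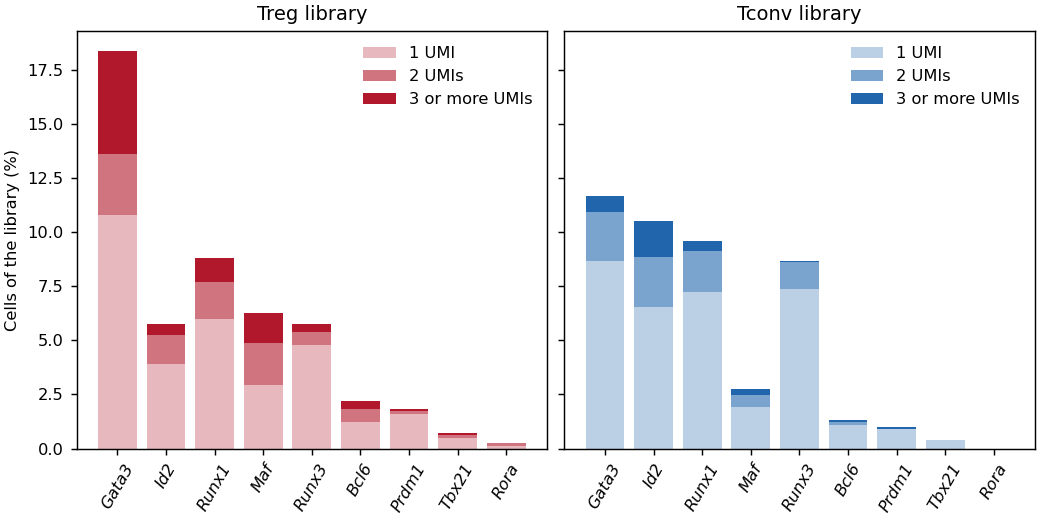
Percent of cells of each library with 1, 2 and 3 or more UMIs of each member, cells not thinned. Cells with 3 or more UMIs are frequent for Gata3 in Treg (39 cells) and for Id2 in Tconv (22 cells), and rare for Runx3 (3 and 1).

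Within the Treg library the Foxp3 transcript divided some members. Maf stood at 107.1 CPM in the cells with a Foxp3 UMI and at 48.2 in those without, a log2 ratio of 1.15 (0.57 to 1.75). Runx3 ran the other way, at 26.8 and 49.4 CPM (-0.88, -1.81 to -0.03). Gata3 was level, at 219.3 and 234.3 CPM (-0.10, -0.42 to 0.23), as were Id2 at 0.22 (-0.50 to 0.93) and Runx1 at 0.39 (-0.18 to 0.95), within their intervals. Between libraries, Treg cells with a Foxp3 UMI against Tconv cells without one gave a log2 ratio of 1.91 for Maf and -1.295 for Runx3. A cell without a Foxp3 UMI may still express Foxp3, since shallow cells miss most transcripts.

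Partners and relatives of the members leaned towards Treg. Of 38 such genes, 23 had at least 20 UMIs. Of these, 5 were at least 2-fold higher in Treg and 0 at least 2-fold lower, with a median log2 ratio of 0.45. Over all 8988 genes measured, 8.61% were higher and 3.6% lower, with a median of 0.14. Id3, the relative of Id2 that also blocks E proteins, had a Treg level of 405.3 CPM against 97.4 for Tconv, which is 2.06 on the log2 scale. Id2 and Id3 therefore stood in opposite order between the libraries. Tox, a chromatin factor of activated T cells, stood at 1.67, Irf4, a factor induced by the T cell receptor, at 2.26, Stat5a at 1.13 and Gata1, a relative of Gata3, at 1.66. The Gata1 value rested on 44 and 19 UMIs. Other abundant relatives differed by less: Ncor1 at -0.04, Stat3 at 0.37, Stat5b at 0.63 and Cbfb, the shared Runx partner, at 0.45. Bach2, a repressor of effector genes, stood at -0.12. Zfpm1, which encodes a partner of GATA factors and was singled out after its values were seen, lay lowest at -0.99 (-1.79 to -0.25), with 21 UMIs in Treg and 57 in Tconv. With TMM factors the counts became 4 higher and 1 lower, with Zfpm1 past 2-fold and Stat5a no longer. The share over all genes was not computed with TMM factors.

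Among genes of the helper programmes, 7 of 12 measured Tfh genes were at least 2-fold higher in Treg, among them the costimulatory receptor Icos at 1.54 and the adaptor Sh2d1a at 1.05, and 1 was lower, Tnfsf8 at -1.77. The list shares Icos and Pdcd1 with the effector Treg list, of which 13 of 17 measured genes were at least 2-fold higher, such as Tnfrsf18 at 2.18 and Tnfrsf4 at 4.70. Of the Th1 list, 2 of 8 measured genes were at least 2-fold higher, Hopx at 2.05 and Ccl5 at 1.14. Ifngr1 stood at 0.92 and Ly6c1 at 0.41. Cxcr6 was lower, with 0 UMIs in Treg and 61 in Tconv. None of 3 measured Th2 genes, with Il4ra at 0.87, and none of 4 measured Th17 genes, with Il1r1 at 0.45, passed 2-fold. Among all genes measured, 8.61% passed it towards Treg and 3.6% towards Tconv.

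The cells that carried a member were then set against the other cells of the same library, in UMIs summed over each side with the member itself left out. This was done where a library had at least 20 carriers, which left Gata3, Maf, Runx1, Runx3 and Id2. Carriers of each of the 5 were deeper than other cells, most of all for Maf in Treg, with a median of 2048.0 UMIs against 1670.0. Summed values of some lists were therefore also computed after thinning to 1000 UMIs per cell. These were the effector or memory, resting, effector Treg, Treg signature, Tfh, Th1, innate-like and T cell receptor response lists. The myeloid list was added for Id2 and Runx3. Doublets were not removed, because no caller was run. The same list values were repeated without cells above 2 times the library's median depth and without the cells that hold markers of other types. Ratios of the leading single genes, counts of genes past 2-fold and the other lists were not rerun, so their dependence on depth was not tested. Shares of carriers and other cells with a gene are of cells not thinned, unless thinning is named. The lists share some genes, among them Icos, Cd44 and Cxcr3.

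Among these 5 members, Maf carriers had the highest effector list value in each library, except that with carriers of at least 2 UMIs Id2 stood at 1.51 and Maf at 1.49 in Treg. With at least 1 UMI, the Treg effector or memory list (S100 proteins, annexins, integrins and other genes of antigen-experienced T cells) summed to 11241 CPM in 51 Maf carriers and 4650 in the other cells, a log2 ratio of 1.27 (1.19 to 1.36). In Tconv it summed to 7702 CPM in 36 carriers and 3287 in 1264 other cells, a log2 ratio of 1.23 (1.10 to 1.36). When thinned these were 1.31 and 1.42. The resting list, which holds the homing receptor Ccr7 and the factors Lef1 and Tcf7, was lower in Treg carriers at -0.98 (-1.15 to -0.82). In Tconv carriers it stood at -0.18 (-0.32 to -0.05). This Tconv value fell below its interval when cells were thinned and with carriers of at least 2 UMIs, so its size depends on the setting.

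Single genes showed the same contrast. S100a4, a calcium-binding protein of motile effector cells, had a UMI in 23 of 51 Maf carriers in Treg and in 6.01% of other cells, a log2 ratio of 3.33 (2.99 to 3.67). S100a6 stood at 2.88 (2.66 to 3.09), with 47.1% of carriers and 10.98% of other cells. Hif1a, the oxygen-sensing factor, stood at 2.41, Glrx at 2.18 and S100a11 at 1.94. Satb1, a chromatin organiser of resting T cells, had a UMI in 4 of 51 carriers and in 32.03% of other cells, a log2 ratio of -3.00 (-4.33 to -1.95). H2-Eb1 and H2-Aa, class II genes of B and myeloid cells, had no UMI in the carriers and were found in 2.88% and 2.35% of other cells. At shares this low few of 51 carriers would be expected to hold them, and 1 cell held 14.8% of the library's H2-Eb1 UMIs. Both genes were also without a UMI in the Treg carriers of Runx3 and Id2, so their absence does not set Maf carriers apart. Of 1914 genes tested, 4.7% were at least 2-fold higher in the carriers, and of the 15 effector genes among them 6 were. For genes at least 2-fold lower the share was 8.2% of all, and 7 of 14 resting genes. In Tconv 2.0% of all genes tested were higher, with 1 of 7 effector genes, and 4.57% lower, with 1 of 15 resting genes.

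In Treg the Maf carriers also held more Foxp3: 54.9% had a Foxp3 UMI against 35.2% of the other cells. The Treg signature stood at 0.49 (0.38 to 0.59), effector Treg genes at 1.27 (1.10 to 1.44) and Tfh genes at 0.95 (0.69 to 1.19). Icos had a UMI in 41.2% of carriers and 10.98% of other cells, and Ctla4 in 29.4% and 11.8%. The shares for Foxp3, Icos and Ctla4 are of cells not thinned. Maf carriers were deeper than other cells, and the part of depth in these shares was not tested.

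In Tconv, Maf carriers also held more of the Treg signature, at 1.98 (1.66 to 2.29). No Foxp3 UMI was found in the 36 carriers and 6 in the other cells, too few to show whether the carriers lacked Foxp3. Izumo1r, the folate receptor 4 that is high on Treg and follicular helper cells, supplied 41 of the 96 signature UMIs, with a UMI in 14 of 36 carriers, 38.9% (23.1 to 56.5) against 9.89% of other cells (8.30 to 11.7). Itga4 at 1.73, Hmgb2 at 1.53, Dynlrb1 at 1.52 and Itgal at 1.31 followed it, and Igfbp4, a gene of resting T cells, was lower at -1.59 (-2.37 to -0.90), as were Hmgn1 at -3.43 and Esyt1 at -1.59. The Tfh list stood at 1.34 (0.97 to 1.68) and the Th1 list at 1.26 (0.80 to 1.69), but with carriers of at least 2 Maf UMIs the Th1 value turned to -0.26.

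Sparser receptor genes, singled out after their values were seen, lay together with Maf in Tconv. Cxcr5, the homing receptor of follicular helper cells, had a UMI in 7 of 36 Maf carriers, 19.4% (8.19 to 36.02), and in 7 of 1264 other cells, 0.55% (0.22 to 1.14). Pdcd1, which encodes PD-1, was found in 5 of 36 and in 5 of 1264. Cd44, a receptor of antigen-experienced cells, was found in 9 of 36 carriers (12.1% to 42.2%), against 4.11% (3.09 to 5.36), and Cxcr3 in 7, against 1.19%. At 1000 UMIs per cell the 16 carriers left held Cxcr5 in 2 cells, 12.5% (1.55 to 38.3) against 0.37% (0.10 to 0.94), Cd44 in 4 (7.27% to 52.4%) against 3.39% (2.40 to 4.64), and Pdcd1 and Cxcr3 in 1 each. The thinned intervals of Pdcd1 and Cxcr3 overlapped those of other cells.

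Id2 carriers also held more of the effector list, which stood at 0.97 (0.87 to 1.07) in the Treg carriers and 0.63 (0.54 to 0.72) in the Tconv carriers, or 0.76 and 0.45 when thinned. The effector Treg list stood at 1.001 (0.80 to 1.19) and 1.65 (1.38 to 1.92). In Tconv, S100a6 led the genes of Id2 carriers at 2.81 (2.35 to 3.27), with 12.4% of carriers against 1.81%. It was followed by Rilpl2 at 2.24, AW112010 at 1.83, the integrin chain Itgb1 at 1.81 and Icos at 1.94. AW112010 was the commonest of them, in 33.6% of carriers and 11.7% of other cells. Myc, a transcription factor that drives growth of activated cells, was lower at -1.54 (-2.47 to -0.74), after Txndc9 at -4.36 and Rap2b at -2.86. Of 3453 genes tested, 1.85% were at least 2-fold higher, and 6 of 14 effector genes, and 3.91% were at least 2-fold lower, and 0 of 18 resting genes.

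The Th1 list stood at 1.33 (1.07 to 1.59) in the Tconv carriers of Id2, although Tbx21 had 2 UMIs in them. None of its 2 genes with enough UMIs to test was at least 2-fold higher, with a median log2 ratio of -0.28. Cxcr6, a chemokine receptor of tissue-homing and innate-like T cells, is in both this list and the effector list, and 54 of its 61 UMIs lay in Id2 carriers. It was singled out after its values were seen. A Cxcr6 UMI was found in 13.9% of Id2 carriers (8.56 to 20.8) and in 6 of 1163 other cells, 0.52% (0.19 to 1.12), so that 19 of the 25 Cxcr6 cells carried Id2. At 1000 UMIs per cell the shares were 10.5% (4.90 to 18.9) and 0.68% (0.28 to 1.41). The chemokine Ccl5 had all 21 of its UMIs in 7 Id2 carriers, and the chemokine Xcl1 all 12 in 5. When thinned, Ccl5 was again found in carriers alone, in 4 cells, while Xcl1 was left with 1 carrier and 1 other cell. Ctsw, a protease of cytotoxic cells, had a UMI in 12.4% of carriers (7.40 to 19.1) and 2.67% of others (1.82 to 3.76). The innate-like list stood at 0.72 (0.47 to 0.97), with 0 of 2 tested genes at least 2-fold higher and a median of -0.24, and Zbtb16, the factor of innate-like T cells, had 4 of its 7 Tconv UMIs there.

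In Treg, S100a4 led the Id2 carriers at 2.89 (2.54 to 3.24), followed by Lsm14a at 1.81, the scaffold gene Ahnak at 1.59, the calcium-regulated factor Nfatc1 at 1.66 and the TNF receptor Tnfrsf1b at 1.49. Among lower genes, H2-Eb1 and H2-Aa had no UMI in them, but were found in only 2.86% and 2.34% of other cells. Of 1540 genes tested there, 3.05% were at least 2-fold higher, with 5 of 13 effector genes, and 7.4% lower, with 2 of 13 resting genes. Cells with markers of other types made up 14.9% of the Treg carriers and 10.3% of other Treg cells, and 8.03% against 3.27% in Tconv. The myeloid list stood at 1.72 and 1.96 in Id2 carriers, and Lyz1, a lysozyme of myeloid cells, had its UMIs in 1 Treg carrier and 2 Tconv carriers. Without the cells holding markers of other types the effector list stood at 0.87 and 0.55. The myeloid values were then -0.72 and 0.00, a fall that follows from leaving out cells chosen by the myeloid list among others.

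Runx3 carriers had an effector list value of 0.81 (0.70 to 0.91) in Treg and 0.21 (0.10 to 0.31) in Tconv. In Treg, S100a6 led at 1.99 (1.73 to 2.24), followed by S100a11 at 1.76, Ahnak at 1.66, Sat1 at 1.47 and Tmem59 at 1.32. H2-Eb1, H2-Aa and Phf2 had no UMI in the carriers and were found in 2.86%, 2.34% and 7.93% of other cells. The T cell receptor response list stood at 0.76 (0.59 to 0.93), with Nr4a1 at 2.07 and Myc at 1.54, each in 5 carriers. Foxp3 was found in 25.5% of these carriers and 37.1% of other cells. Of 1459 genes tested, 3.43% were at least 2-fold higher, with 4 of 13 effector genes, and 5.41% lower, with 2 of 13 resting genes. The myeloid list stood at 1.71, with 83 Lyz1 UMIs in 2 carriers, and turned to -0.32 without cells above 2 times the median depth. In Tconv the leading genes were Rsu1 at 1.22, Pdia6 at 1.24, Srgn, a proteoglycan of secretory granules, at 0.97, Ube2g1 at 1.20 and Ntan1 at 1.21. The lower ones were Sec23b, Pip4k2a and Ccng2, with 1 to 3 UMIs in the carriers. Of all genes tested in Tconv, 0.837% were at least 2-fold higher, with 1 of 13 effector genes, and 4.62% lower, with 1 of 18 resting genes. Plasma cell markers moved with these carriers: the list stood at 1976 CPM in them and 32.3 in other cells, a log2 ratio of 5.93 (5.53 to 6.36). Nearly all of it was Jchain, the joining chain of secreted antibodies, at 1773 CPM in the carriers from 1 cell. Cells with markers of other types made up 7.08% of the carriers and 3.45% of other cells, and without such cells the effector list stood at 0.13. Their part in the other values was not tested. The Th1 list stood at 0.91 (0.61 to 1.21) in the Tconv carriers. Nkg7, a cytotoxic granule gene singled out after its values were seen, was found in 5 carriers and 4 of 1187 other cells, 4.42% (1.45 to 10.02) against 0.34% (0.09 to 0.86).

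The effector list in Runx1 carriers was at 0.58 (0.49 to 0.68) in Treg and 0.08 (-0.03 to 0.19) in Tconv. Their leading genes were S100a6 at 1.60, Glipr1 at 1.77, Rad23b at 1.80, Elp2 at 1.69 and Snrnp40 at 1.58 in Treg, and Sgpl1 at 1.70, Mrps5 at 1.56, Hspbp1 at 1.45, 2810403A07Rik at 1.36 and Cs at 1.16 in Tconv. Lower genes included Atp1b1, Ccng2 and Cmah in Treg and Cd74 and Tsnax in Tconv. At least 2-fold higher in Treg carriers of Runx1 were 2.73% of all genes tested and 3 of 15 effector genes, and lower were 6.58% and 2 of 16 resting genes. In Tconv it was 0.652% and 0 of 13 effector genes, and 3.85% and 0 of 18 resting genes. Icos had a UMI in 23.6% of the Treg carriers of Runx1 and 11.8% of other cells. For Gata3 the effector list stood at 0.52 (0.45 to 0.59) in 150 Treg carriers, but turned to -0.09 when cells were thinned, so its direction depends on depth. In Tconv it was 0.17 (0.07 to 0.27) both ways. The leading genes of Gata3 carriers were Psmd14 at 1.77, S100a4 at 1.505, Srsf10 at 1.75, Fam76b at 1.42 and Rab1b at 1.42 in Treg, and Glul at 1.83, Wbp1l at 1.67, Sp2 at 1.64, Eaf1 at 1.58 and Maml2 at 1.56 in Tconv. The lower genes were Mrps30, Cdk7 and Hivep2 in Treg and Cd74, Golga7 and Dck in Tconv. At least 2-fold higher in Treg carriers of Gata3 were 2.42% of all genes tested and 2 of 17 effector genes, and lower were 5.79% and 1 of 17 resting genes. In Tconv it was 1.36% and 2 of 14 effector genes, and 3.48% and 0 of 18 resting genes. The Th2 list was level in them, at 0.00 (-0.38 to 0.37) in Treg and 0.13 (-0.40 to 0.63) in Tconv. Il4ra, the receptor chain through which IL-4 signals, stood at 0.04 and 0.36.

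**Figure D3:**
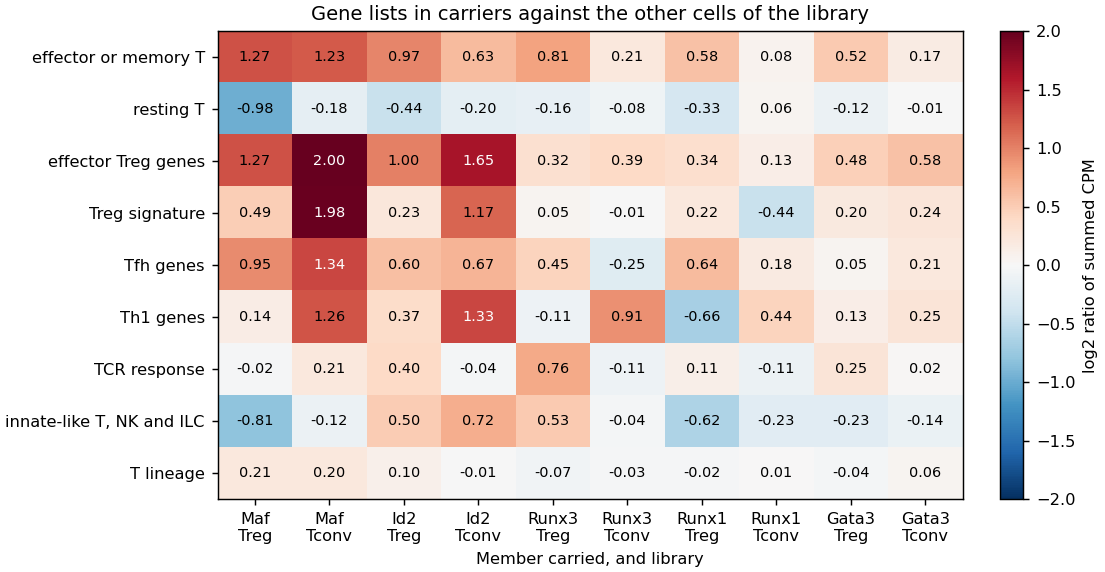
Log2 ratio of the summed CPM of 9 gene lists (rows) in carriers of a member against the other cells of the same library (columns), cells not thinned. Within each library, the Maf and Id2 columns hold the highest effector and effector Treg values. The Gata3 Treg effector value of 0.52 turns to -0.09, and the Id2 Treg Tfh value of 0.60 to -0.09, when cells are thinned to 1000 UMIs.

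A second view does not start from the carriers. Cells of at least 1000 UMIs were thinned to that depth and put in 4 classes by their UMIs of the effector list, which holds no member: 0, 1 to 2, 3 to 5, and 6 or more. The classes are ranges of a score and not cell types, and the highest held 27.2% of Treg and 17.4% of Tconv cells, of which 41 and 63 lay at its border of 6 UMIs. Maf stood at 82.2, 23.99, 24.5 and 170.8 CPM over the classes in Treg and at 13.97, 1.47, 20.5 and 92.5 in Tconv. It was thus highest in the highest class in both libraries, and not graded below it. The log2 ratio of the highest over the lowest class was 1.05 (0.16 to 2.08) and 2.73 (1.04 to 5.08), the latter from 3 UMIs in the lowest class.

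Id2 in Tconv stood at 107.1, 101.5, 113.5 and 265.1 CPM, a log2 ratio of 1.31 (0.63 to 2.04) with the rise in the highest class alone. In Treg it stood at 34.3, 11.995, 53.4 and 81.7, with a ratio of 1.25 (-0.11 to 2.97). Gata3 in Treg was flat at 253.5, 239.9, 231.4 and 215.4 CPM, -0.24 (-0.81 to 0.36), and in Tconv it stood at 88.4, 104.4, 88.3 and 151.1, 0.77 (-0.02 to 1.62). Runx1 in Treg rose from 6.85 CPM, a level of 1 UMI, to 99.02, a log2 ratio of 3.85 (1.29 to 9.19), and was at 46.6 and 86.3 in Tconv, 0.89 (-0.19 to 2.10). The Runx1 direction in Tconv turned to -0.32 with classes made at 500 UMIs, and its Treg value fell to 1.13. Runx3 stood at 13.7 and 54.5 CPM in the lowest and highest Treg class and at 41.9 and 77.1 in Tconv, both with intervals that spanned no change.

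**Figure D4:**
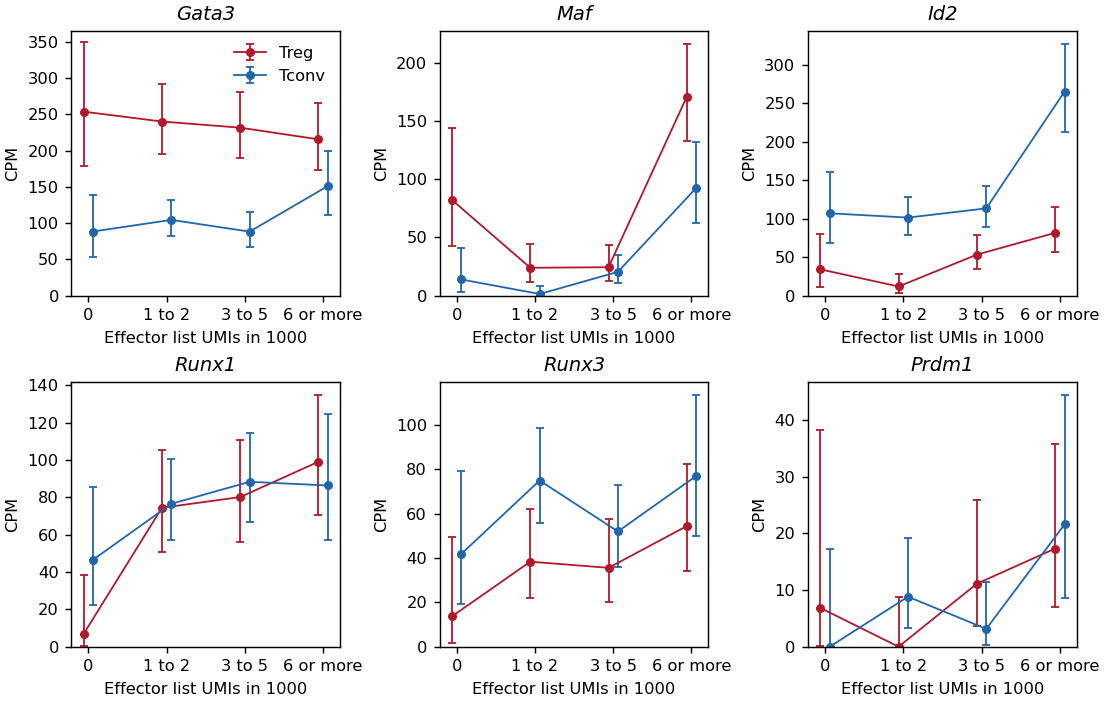
Level of 6 members in CPM over 4 classes of cells by the number of effector list UMIs in 1000, in the Treg and Tconv libraries, with exact 95% Poisson intervals. Most members are highest in the class of 6 or more in each library. Exceptions are Gata3 in Treg, flat from 253.5 to 215.4 CPM, and Runx1 in Tconv, at 88.3 in the class of 3 to 5 and 86.3 above it. The ratio of the highest over the lowest class had an interval above no change for Maf, for Id2 in Tconv and for Runx1 in Treg.

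By cells rather than UMIs, 64.6% of 48 Maf carriers in Treg (49.5 to 77.8) lay in the highest class, against 24.6% of other cells (21.5 to 28.03). In Tconv it was 48.4% of 31 (30.2 to 66.9) against 16.5% (14.4 to 18.9). Among Id2 carriers in Tconv the share was 31.5% of 130 (23.7 to 40.3) against 15.5% (13.3 to 17.97). In Treg it was 37.8% (23.8 to 53.5) against 26.6% (23.3 to 30.01), which overlapped. Gata3 carriers in Treg were at 35.9% (28.1 to 44.2) against 25.1% (21.7 to 28.8), with the intervals just overlapping. Shares of 38.6% for Runx1 and 38.6% for Runx3 in Treg, and of 20.9% for Runx1 in Tconv and 21 of 100 carriers for Runx3 there, also overlapped those of the other cells.

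**Figure D5:**
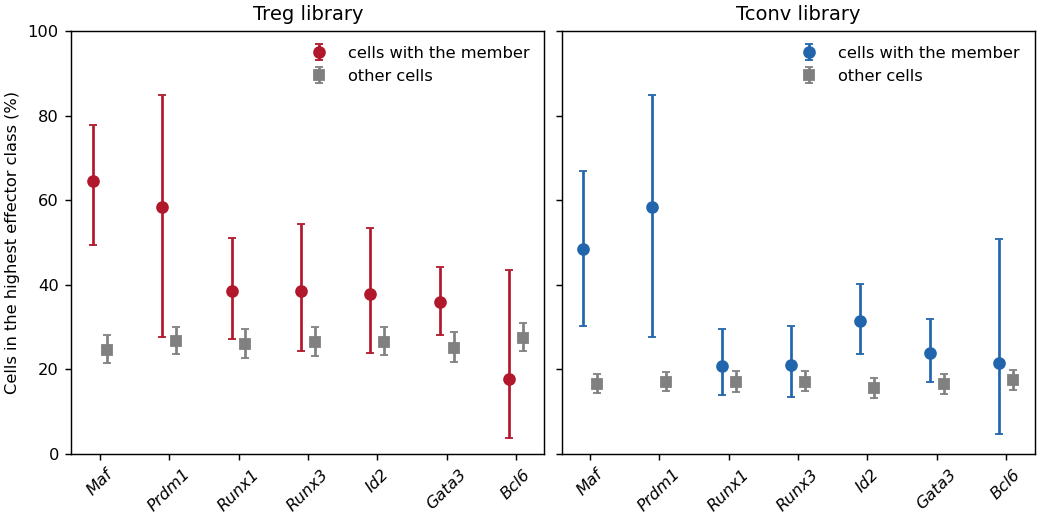
Percent of cells with a member (circles) and of the other cells of the library (squares) that lie in the highest effector class, with exact Clopper-Pearson 95% intervals. Intervals of carriers and other cells are apart for Maf in both libraries and for Id2 and Prdm1 in Tconv, the Prdm1 share resting on 12 carriers.

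Members with fewer than 20 carriers are given as counts of cells, and the list ratios beside them rest on few cells. Prdm1 carriers lay in the highest effector class in 7 of 12 cells in each library, 58.3% (27.7 to 84.8), against 26.7% of other Treg cells (23.5 to 30.1) and 16.97% of other Tconv cells (14.8 to 19.3). The intervals overlapped in Treg and were apart in Tconv. In Treg 9 of 15 Prdm1 carriers had an S100a4 UMI, against 7.49% of other cells, and 6 of 15 had a Maf UMI, against 5.62%. The effector list stood at 1.08 (0.90 to 1.25) in Treg and 0.73 in Tconv.

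Of the 6 Tbx21 carriers in Treg, 4 had an Icos UMI, 3 had Foxp3 and 2 had Cxcr3, a receptor gene that T-bet is known to drive, against 12.5%, 36.3% and 2.72% of other cells. Of the 5 in Tconv, 3 had S100a4, 3 had Icos, 2 had Maf and 1 had Cxcr3, and their effector list stood at 2.19 (1.91 to 2.46). The 2 Rora carriers in Treg both had Foxp3 and Izumo1r UMIs, and neither had S100a4 or Icos.

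Bcl6 carriers held more of the effector Treg list, at 0.75 (0.45 to 1.04) in Treg and 1.296 (0.55 to 1.95) in Tconv, and less of the resting list, at -0.33 and -0.48. The effector or memory list stood at 0.17 (-0.01 to 0.35) in Treg, where 1 carrier held most of the carriers' UMIs of the list. In Tconv it stood at 0.49 (0.24 to 0.73), and 1 carrier held 58 of its UMIs. The Treg signature stood at 0.31 (0.13 to 0.49) and 1.05 (0.40 to 1.63). Single cells weighed on these Tconv values too. There 1 carrier held 10 of the carriers' 19 effector Treg UMIs, and 1 held 11 of their 24 Treg signature UMIs. None of the 18 in Treg had an Icos UMI, against 13.2% of other cells, 1 had Cxcr5 and 3 had Pdcd1, while 15 had Izumo1r, against 55.1%. In Tconv 1 of 17 had Cxcr5 and none had Pdcd1. Bcl6 and Maf were found together in 1 Treg cell and in no Tconv cell. Cells with markers of other types made up 4 of the carriers in each library, and most myeloid list UMIs of the carriers lay in 1 cell of each library, which held 98 of them in Tconv. Without such cells 23 and 15 Bcl6 UMIs remained. Their part in the Bcl6 levels was not tested further.

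Most cells showed no member at all. At 1000 UMIs, 69.6% of cells in Treg had none, 26.02% had 1, 3.93% had 2 and 0.41% had 3. In Tconv 72.8% had none, 22.1% had 1, 4.51% had 2 and 0.54% had 3. Of the 36 pairs of members, looked at in each library, the pair of Gata3 and Id2 in Tconv was found together most often. Of the Gata3 carriers there, 16 also had Id2, 15.8% (9.33 to 24.4), against 6.95% of other cells (5.46 to 8.70), and these intervals did not overlap. In Treg the same pair shared 3 cells, 3.09% of Gata3 carriers (0.64 to 8.77) against 4.37% (2.92 to 6.25). Gata3 and Maf shared 5 Treg cells, 5.15% of Gata3 carriers against 4.84% of others, and no Tconv cell. Maf and Id2 shared 4 Tconv cells, or 4 of the 16 Maf carriers (7.27% to 52.4%) against 7.51% (6.02 to 9.24). Runx1 and Runx3 shared 3 and 4 cells, with overlapping intervals.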

How the data were processed

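The authors deposited 1 table of UMI counts per gene and cell, made with inDrops on a NextSeq500 per the labels' protocols. TopHat2, SAMtools and mm10 are named in the submitters' processing notes. The read counter is not given in the sources used here, nor are its use of strand and the cell filter. Antisense genes overlap Gata3, Rora, Maf, Runx1 and Runx3, and reads from them cannot be told apart from the members' own. From the deposited counts, CPM, exact Poisson and Clopper-Pearson 95% intervals and exact conditional ratio intervals were computed with Python 3.11.15 and scipy 1.17.1. They cover counting error only and treat UMIs as independent. Treg cells numbered 738 and Tconv cells 1108 after thinning to 1000 UMIs, leaving out 78 and 192 shallower cells. Carrier profiles used genes with at least 10 UMIs expected in the carriers. A gene at 0 was set to 3 counts when list medians were taken. edgeR 4.0.16 gave TMM factors and DESeq2 1.42.0 size factors as alternatives, and the interval code was tested on simulated data. Members and gene lists were chosen with earlier results of these data known. Named genes of a profile are the 5 higher and 3 lower genes with the ratio bound farthest from 1, seen in at least 10 cells of the side where they are higher and with no cell holding over 20% of their UMIs. Genes of ribosomal proteins and of T cell receptor variable segments were not named. Of each list, genes among those with the most UMIs are named, and others were chosen after their values were seen. Counts of some UMIs and cells are given as CPM or percent. Some genes that this rule names are not reported here.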

Additional observations from a re-analysis of the deposited data

How the results depend on the processing

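No paired analysis was possible because each group is 1 library and the numbers in the cell names count cells. The member ratios between libraries stayed within their intervals in 77 of 80 alternatives. Selecting cells by Foxp3 moved Maf to 1.91 and Runx3 to -1.295, and thinning moved Prdm1 to -0.41. With TMM factors 1 member and 1 Th1 gene were at least 2-fold higher in Treg. With at least 1 UMI the counts were 5 for Th1, 4 for Th17, 1 for Th2 and 8 for partners, and with at least 50 UMIs 6 for effector Treg genes. The share over all genes was not computed with TMM factors or at these thresholds, so these counts have no background beside them. With at least 1 UMI they include genes with very few UMIs, such as Tmem176a with 5 in Treg and 1 in Tconv. Log2 ratios of thinned shares with at least 2 UMIs were 2.59 for Bcl6, 1.15 for Gata3 and 0.74 for Runx1, and at 2000 UMIs -0.83 for Runx1. Effector classes made at 500 UMIs gave Maf 2.36 in Treg and 5.38 in Tconv, and Runx1 1.13 and -0.32.

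Carrier list values stayed within their main interval in most of 420 alternatives and reversed in 17. In a number larger than 17 they left that interval without being counted as reversed. They were therefore less stable than the member ratios. The cause was not tested. With cells thinned, the effector list stood at -0.087 (Gata3 Treg), 0.76 and 0.45 (Id2 Treg and Tconv), 1.42 (Maf Tconv), 0.28 (Runx1 Tconv) and 0.63 (Runx3 Treg). The resting list stood at -0.50 (Maf Tconv), 0.078 (Runx3 Tconv) and 0.00082 (Runx3 Treg). The Tfh list turned to -0.088 (Id2 Treg), the Treg signature to 0.034 (Runx1 Tconv) and the myeloid list to -0.83 and -0.18 (Id2 Treg and Tconv). With carriers of at least 2 UMIs, the effector list stood at 0.27 and 0.59 (Gata3 Treg and Tconv), 1.51 and 0.72 (Id2), 1.49 (Maf Treg), 0.85 (Runx1 Treg), 1.296 and 4.3e-05 (Runx3). The resting list then stood at 0.11 (Gata3 Tconv), -0.73 and -0.39 (Id2), -1.23 and -0.69 (Maf), -0.86 (Runx1 Treg) and 0.21 (Runx3 Tconv). The Th1 list turned to -0.26 (Maf Tconv) and -0.68 (Runx1 Tconv), the Treg signature to -0.12 (Id2 Treg), effector Treg genes to -0.96 (Runx3 Tconv) and the myeloid list to -1.06 (Id2 Tconv). With equal weight per cell, the effector list stood at 0.39 (Gata3 Treg), 0.86 (Id2 Treg) and 0.69 (Runx3 Treg), and the resting list at -0.21 (Runx1 Treg). Without deep cells the effector list stood at 0.31 (Gata3 Treg), 0.48 and 0.78 (Id2 Tconv and Treg), 1.37 (Maf Treg), 0.69 (Runx1 Treg) and 0.61 (Runx3 Treg), the resting list at -0.0080 (Runx3 Tconv), and the myeloid list at -0.54 (Id2 Tconv) and -0.32 (Runx3 Treg). Without cells holding markers of other types, the effector list stood at 1.47 (Maf Treg) and 0.69 (Runx1 Treg). The myeloid list stood at -0.0036 and -0.72 (Id2 Tconv and Treg), which follows from the use of that list in choosing the cells. The share of Fasl cells among Runx3 carriers in Tconv less that among other cells was -0.29 percentage points when thinned. Alternatives with fewer than 5 carriers or no UMI on a side gave no value, and Rora got no ratio.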
